A study of Mus musculus with 4 samples.

Results

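A set of 10 genes known for reactive gliosis and the injury response of the retina was followed in sorted cells of the mouse retina: Gfap, Lcn2, Serpina3n, Edn2, Stat3, Socs3, Cebpb, Cebpd, Fgf2 and Lif. They were chosen by name, and 10 of 10 were found among the 21831 genes of the expression tables, each on 1 row with a status of OK in every library. Poly(A) RNA was sequenced from retinal cells that had been sorted with an antibody against Cd73, a surface enzyme carried by rod photoreceptors and their precursors. The Cd73-positive fraction (Cd73P) holds mainly rods, and the Cd73-negative fraction (Cd73N) holds the remaining cells, including Müller glia, interneurons and cones. Both fractions came from mice of background strain slc:ICR at postnatal day 12, either wildtype or Ezh2-cKO, and normal littermates served as the controls. In Ezh2-cKO mice floxed Ezh2, the gene of a histone H3 methyltransferase, is deleted by a Dkk3-Cre transgene that is active in retinal progenitor cells, so the deletion was not aimed at any one mature cell type. There were 4 libraries with 1 library per group. How many retinas were pooled for each is not given in the sources used here.

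The labels were checked first. Ezh2 was at 14.1 FPKM in Cd73N wildtype, 15.9 in Cd73N Ezh2-cKO, 5.38 in Cd73P wildtype and 3.45 in Cd73P Ezh2-cKO, where FPKM is the fragment count per kilobase of exon, scaled to the mapped fragments of the library. The Cd73N value therefore went against its label, although a gene-level value cannot show the loss of a floxed exon, and both knockout libraries are therefore referred to as labelled Ezh2-cKO. Nt5e, which encodes Cd73, was at 0.61 to 0.84 FPKM in Cd73N and at 123 to 125 FPKM in Cd73P. The summed FPKM of 4 Y-linked genes was 26.8 and 27.9 in the wildtype libraries and 0.50 and 0.72 in those labelled Ezh2-cKO, so that the genotype cannot be told apart from the sex of the pooled animals. Because each group was 1 library, no difference below has a replicate check and no test was made. Each standard error (SE) covers counting error within a library only. In bulk fractions such as these, fewer cells of a type and less RNA per cell cannot be told apart.

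Reactive gliosis is the response of glia to stress or damage of the tissue. In the retina it is carried mainly by Müller glia, which span the tissue and make the intermediate filament protein Gfap. Cytokines of the interleukin 6 family, among them Lif, bind receptors that share the chain Il6st and activate Jak kinases, which phosphorylate the transcription factor Stat3, and Stat3 induces its own inhibitor Socs3. Stressed photoreceptors are known as a source of endothelin 2 (Edn2) and of the survival factor Fgf2, while the receptor Ednrb is found on Müller glia. The bZIP factors Cebpb and Cebpd and the secreted proteins Lcn2 and Serpina3n belong to the acute-phase response.

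The genes lie at separate loci of mm9, the genome build of the tables. Gfap is on chromosome 11 at 102748650 to 102758514 on the minus strand, and Stat3 is on the same chromosome and strand at 100748124 to 100800825. Socs3 (chromosome 11, 117827401 to 117830680, minus) and Lif (chromosome 11, 4157571 to 4172517, plus) are further members on that chromosome. Lcn2 (chromosome 2, 32240157 to 32243259, minus) and Cebpb (chromosome 2, 167514415 to 167515918, plus, a single exon) share chromosome 2. Fgf2 is on chromosome 3 at 37247575 to 37303752 (plus), Edn2 on chromosome 4 at 119834029 to 119839965 (plus), Serpina3n on chromosome 12 at 105644918 to 105652539 (plus) and Cebpd on chromosome 16 at 15887379 to 15889638 (plus). The deposited locus of Cebpd overlaps 2310008H04Rik on the opposite strand, which was at 2.28 and 2.67 FPKM in Cd73N and 1.2 and 0.70 FPKM in Cd73P, wildtype first. In the GENCODE annotation of the same build, exons of Fgf2 share 242 bases with Nudt6 and those of Cebpb share 312 bases with Tmem189, both on the opposite strand. Counting by strand is not stated, so reads from 1 gene of such a pair may have been counted for the other. GENCODE also places 72 shared exon bases between Stat3 and Stat5a. The deposited loci of these 3 pairs did not overlap, so no position belonged to both genes of a pair in the values used here.

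Promoter stretches are printed for the 4 members that held a motif of the factors named here, because Stat3, the C/EBP factors and immediate early AP-1 genes all appear in the results. RefSeq promoters of build GRCm38.p6, from 250 bases before to 50 after each start, were found for 9 of the 10 members. They were searched on both strands for TTCNNNGAA (STAT), TTGCNNAA (C/EBP) and TGANTCA (AP-1), and no member promoter held more than 1 match. Of all 32851 promoters, 8.3% held the STAT motif, 10.8% the C/EBP motif and 7.81% the AP-1 motif. Among the 9 member promoters the STAT motif was in 2, the C/EBP motif in 1 and the AP-1 motif in 1. The matches are in capitals below and the strands are those of the genes, with positions counted from the start site. In Socs3 (chr11:117969467-117969565, minus) the STAT match lay at -154 to -146, and in Gfap (chr11:102897194-102897247, minus) it spanned the start from -2 to 7. In Lcn2 (chr2:32387903-32387989, minus) the C/EBP match lay at -216 to -209, and in Lif (chr11:4257318-4257391, plus) the AP-1 match lay at -228 to -222. A match describes the letters of the window and is not a bound site.
Socs3: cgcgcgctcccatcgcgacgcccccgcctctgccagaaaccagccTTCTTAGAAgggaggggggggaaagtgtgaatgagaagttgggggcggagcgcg
Gfap: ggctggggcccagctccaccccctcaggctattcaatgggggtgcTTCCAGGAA
Lcn2: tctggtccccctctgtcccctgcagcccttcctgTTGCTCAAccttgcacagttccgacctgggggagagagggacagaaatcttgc
Lif: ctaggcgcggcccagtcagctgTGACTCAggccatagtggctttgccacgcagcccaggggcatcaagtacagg

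Most members were expressed weakly in wildtype. In Cd73N wildtype 6 of 10 reached 1 FPKM and the median was 1.70 FPKM, with Stat3 highest at 16.4 FPKM. In Cd73N Ezh2-cKO 8 members reached 1 FPKM and 4 reached 10 FPKM, and the median was 6.08 FPKM. In Cd73P wildtype 4 members reached 1 FPKM and the median was 0.84 FPKM, while in Cd73P Ezh2-cKO 7 did and the median was 1.31 FPKM. The summed level of all members was 31.1 and 107 FPKM in the Cd73N libraries and 17.7 and 40.8 FPKM in the Cd73P libraries, wildtype first. The levels of each gene in each library are plotted here.

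**Figure D1:**
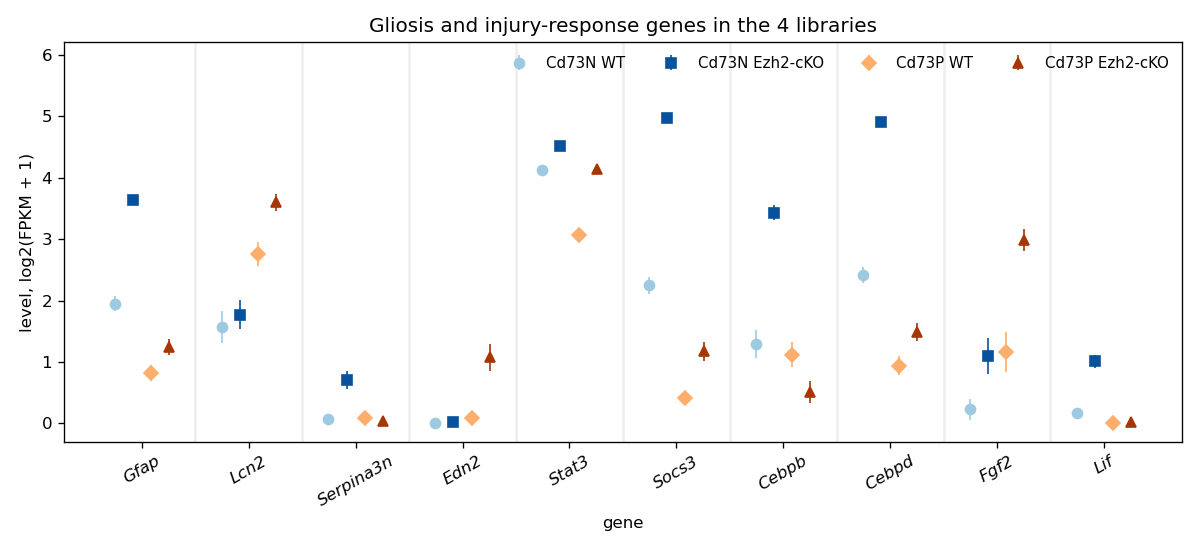
Level of each of the 10 genes as log2(FPKM + 1) in the 4 libraries, 1 point per library, with bars of 2 counting SE. Socs3, Cebpd, Cebpb and Gfap stand highest in the Cd73N library labelled Ezh2-cKO, whereas Lcn2, Fgf2 and Edn2 stand highest in the Cd73P library labelled Ezh2-cKO.

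The first comparison asked how the members differed between genotypes in Cd73N cells, the fraction with the glia. Values were compared as differences of log2(FPKM + 1), which understates the change of weakly expressed genes, and a gene was counted as higher or lower past a 1.5-fold difference on that scale. In the Cd73N library labelled Ezh2-cKO, 7 of 10 members were higher and 0 were lower. Of all 21705 genes compared, 7.18% were higher and 1.71% were lower, and of the 12845 genes that reached 1 FPKM in either library 11.6% were higher and 2.86% were lower. The median difference was 0.85 over the members and 0 over all genes. Socs3, Cebpd, Cebpb and Gfap had the largest differences, and Fgf2, Lif and Serpina3n passed the threshold at low levels. Lcn2, Edn2 and Stat3 stayed within 1.5-fold.

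Socs3, the feedback inhibitor of Jak kinases that Stat3 induces, had the largest difference of the 10 genes in this fraction. It was at 3.74 FPKM in Cd73N wildtype and 30.4 FPKM in Cd73N Ezh2-cKO, and in Cd73P it was at 0.34 and 1.26 FPKM. The 4 levels were thus well apart, with both Cd73N libraries above both Cd73P libraries. The difference between genotypes was 2.73 (SE 0.072) in Cd73N, above 99.9% of all genes compared. The Cd73N Ezh2-cKO value exceeded its own deposited upper bound. Stat3 itself was at 16.4 FPKM in Cd73N wildtype and 21.9 FPKM in Cd73N Ezh2-cKO, a difference of 0.39 (SE 0.039) that did not reach 1.5-fold.

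Cebpd and Cebpb, transcription factors of the acute-phase response, followed Socs3. Cebpd rose from 4.32 to 28.8 FPKM in Cd73N, a difference of 2.49 (SE 0.070). Cebpb rose from 1.44 to 9.74 FPKM, a difference of 2.14 (SE 0.13). Both were highest in the Cd73N library labelled Ezh2-cKO, far from the other 3 libraries. For Tmem189, whose exons overlap those of Cebpb in GENCODE only, the Cd73N difference was 0.022.

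Gfap, the intermediate filament protein by which gliosis is usually recognised, rose from 2.86 to 11.4 FPKM in Cd73N. Its difference of 1.68 (SE 0.074) was below the median of 1.86 over 29 Müller glia genes in the same libraries, of which 28 were higher and 0 lower. That list includes Apoe, Dkk3, Rlbp1, Dbi and Slc1a3, which the paper names among the top rises of this same comparison. Its count and median therefore rest partly on genes already known to rise here. The summed level of that list was 2297 FPKM in Cd73N wildtype and 8946 FPKM in Cd73N Ezh2-cKO, and no gene of it was listed at 0. Relative to the Müller glia median, the differences were 0.86 for Socs3, 0.62 for Cebpd and 0.27 for Cebpb, whereas Gfap was at -0.18. These values hold for the added 1, which shrinks the differences of low genes most. Without a pseudocount the Gfap difference was 1.99, and the Müller glia median was not computed that way. The part of Müller glia content in these values was not tested. Among further intermediate filament genes, Vim went from 71.1 to 197 FPKM with a difference of 1.46, while Nes (-0.06), Des (-0.11) and Synm (0.48) stayed within 1.5-fold. Gfap is also a marker of astrocytes. Of 10 astrocyte markers 4 were higher in Cd73N (Gfap, Agt, Aldh1l1 and S100b), against 7.18% of all genes. The summed level of the 10 markers was 63.8 and 113 FPKM. The defining marker Pax2 was at 0.16 and 0.33 FPKM, and Gjb6 was listed at 0 and at 0.053 FPKM, wildtype first.

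Lif, a cytokine of the interleukin 6 family, was at 0.12 FPKM in Cd73N wildtype and 1.02 FPKM in Cd73N Ezh2-cKO. In both Cd73P libraries it was below 0.02 FPKM. The Cd73N difference was 0.85 (SE 0.064), and the ratio of the FPKM values was 8.34. The deposited bounds correspond to about 19.0 and 193 fragments. Serpina3n, an acute-phase protease inhibitor secreted by reactive astrocytes, was at 0.046 FPKM in Cd73N wildtype and 0.63 FPKM in Cd73N Ezh2-cKO, a difference of 0.64 (SE 0.080). It did not reach 1 FPKM in any of the 4 libraries. Serpina3n has close paralogues whose reads may be shared, and the other 10 genes of the cluster were at 0.0401 FPKM or less in every library. The differences of both genes rested on low levels, and with a pseudocount of 5 they were 0.23 for Lif and 0.16 for Serpina3n.

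Fgf2 was at 0.18 FPKM in Cd73N wildtype and 1.14 FPKM in Cd73N Ezh2-cKO, a difference of 0.86 (SE 0.17). Lcn2, a secreted lipocalin, was at 1.96 and 2.41 FPKM, a difference of 0.21 (SE 0.17) within the counting error of 2 SE. Edn2 was listed at 0 in Cd73N wildtype and at 0.017 FPKM in Cd73N Ezh2-cKO, about 1.75 fragments by the deposited bounds.

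Immediate early genes, which dissociation and sorting can also induce, moved in Cd73N together with Socs3, Cebpb and Cebpd. Of 21 such genes 13 were higher and 0 lower in Cd73N, against 7.18% and 1.71% of all genes. The differences were 3.70 for Fosb, 3.61 for Zfp36, 3.10 for Fos and 2.74 for Dusp1. The summed level of the 21 genes was 408 and 1671 FPKM in the Cd73N libraries but 366 and 379 FPKM in Cd73P. In the Cd73P libraries Fosl1 was effectively at 0. In Cd73P, Fos, Zfp36 and Fosb were higher (0.92, 0.65 and 0.59), and Egr1 and Jun were lower (-0.70 and -0.65). Of 16 microglia markers 5 were higher in Cd73N (Ctss, P2ry12, Csf1r, C1qa and Cx3cr1), all with differences of at most 0.73, and their summed level was 149 and 223 FPKM in Cd73N. Of 12 neutrophil markers S100a9, Retnlg and S100a8 were higher, with a summed level of 4.25 and 11.4 FPKM, and the defining genes Elane and Mpo were listed at 0 in every library. Of 13 endothelial markers Flt1 (2.16) and Kdr (1.89) were higher and Esam (-0.80) was lower. The other 10 stayed within 1.5-fold and the list median was 0.046, and Kdr is also a gene of the Müller glia list. Bipolar cell and cone markers moved as well. Of 20 bipolar markers 13 were lower in Cd73N, where their summed level was 3658 and 2071 FPKM, and 14 were lower in Cd73P (574 and 304 FPKM). Of 12 cone markers 3 were higher and 0 lower in Cd73N (5133 and 6613 FPKM), and 1 was higher and 8 lower in Cd73P (480 and 291 FPKM). In Cd73P 2.26% of all genes were higher and 2.39% lower. No marker of either list was at 0. The part of dissociation and of these cells in the members' values was not tested.

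The same comparison was made in Cd73P cells, the rod fraction. In the Cd73P library labelled Ezh2-cKO, 5 of 10 members were higher (Fgf2, Stat3, Edn2, Lcn2 and Socs3) and 1 was lower (Cebpb). Of all 21706 genes compared, 2.26% were higher and 2.39% were lower, and of the 10681 genes that reached 1 FPKM in either library 4.32% were higher and 4.54% were lower. The median difference was 0.65 over the members and 0 over all genes. Fgf2, Edn2 and Lcn2 reached their highest level of all 4 libraries here, and Stat3 approached its Cd73N level.

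Fgf2, a growth factor that protects photoreceptors, rose from 1.24 to 6.92 FPKM in Cd73P. The Cd73P Ezh2-cKO level was clear of the other 3 libraries, while Cd73P wildtype and Cd73N Ezh2-cKO overlapped within 2 SE. The difference of 1.82 (SE 0.19) was the largest of the members in Cd73P and lay above 99.9% of all genes compared. The Cd73P Ezh2-cKO value exceeded its own upper bound. Nudt6, whose exons overlap Fgf2 on the opposite strand in GENCODE only, was at 3.61 and 7.12 FPKM in the same libraries, a difference of 0.82. In Cd73N, Nudt6 had a difference of 0.16 against 0.86 for Fgf2. Among 21 rod genes compared in Cd73P 4 were higher (Guca1b and Gnat1 both 1.31, Guca1a 0.82 and Pde6a 0.79) and 0 lower, with a median of 0.34. Of all genes compared in Cd73P, 2.26% were higher and 2.39% lower.

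Edn2, the endothelin released by stressed photoreceptors, was at 0.063 FPKM in Cd73P wildtype and 1.11 FPKM in Cd73P Ezh2-cKO. By the deposited bounds these are about 4.4 and 47.8 fragments. The 3 other libraries were all below 0.07 FPKM. Among these the Cd73N library labelled Ezh2-cKO overlapped both wildtype libraries within 2 SE. The difference was 0.99 (SE 0.12), and at so low a level it moved with the pseudocount, to 2.90 at 0.1 and 0.27 at 5. Its receptor Ednrb was a gene of Cd73N, where it rose from 6.04 to 15.1 FPKM. The difference of 1.2 was below the Müller glia list median of 1.86. In Cd73P Ednrb was at 0.48 and 0.59 FPKM. The other receptor, Ednra, was at 10.5 and 8.41 FPKM in Cd73N, and Edn1 and Edn3 were below 0.1 FPKM in every library.

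Stat3 rose from 7.42 to 16.7 FPKM in Cd73P, a difference of 1.07 (SE 0.050). The Cd73P Ezh2-cKO level overlapped that of Cd73N wildtype within 2 SE, while Cd73P wildtype was the lowest of the 4 libraries. Among the other Jak and Stat genes, Jak1 rose from 24.3 to 44.7 FPKM in Cd73P, a difference of 0.85, and had a difference of 0.00054 in Cd73N. Socs3 rose from 0.34 to 1.26 FPKM in Cd73P, a difference of 0.76 (SE 0.095). At these levels it was close to the median of 0.85 over the Müller glia list in Cd73P, in which 20 of 29 genes were higher and 0 lower and whose summed level was 356 and 622 FPKM. Cish, another gene of the Socs family, rose from 3.61 to 10.9 FPKM, a difference of 1.37.

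Lcn2 rose from 5.73 to 11.1 FPKM in Cd73P, a difference of 0.85 (SE 0.12). Both Cd73P libraries were above both Cd73N libraries, and the latter overlapped within 2 SE. Each of the Cd73P values exceeded its own upper bound. Lcn2 is also a granule protein of neutrophils. The summed level of the 12 neutrophil markers in Cd73P was 1.16 and 1.28 FPKM, with S100a8, Ltf, Retnlg, Mmp8, Elane and Mpo listed at 0 in both libraries. Within that sum, S100a9 went from 0 to 0.37 FPKM (difference 0.45), Camp from 0 to 0.16 FPKM (0.21) and Ngp from 0 to 0.022 FPKM, while Mmp9 fell from 0.70 to 0.12 FPKM (-0.60). Their part in the Lcn2 value was not tested. Markers of the retinal pigment epithelium were present in Cd73P, and their summed level over 9 genes was 55.0 FPKM in wildtype and 44.8 FPKM in the library labelled Ezh2-cKO. None of these markers rose past the threshold and Rgr, Rpe65 and Dct fell. The known Lcn2 receptor genes Slc22a17 (15.3 FPKM in the library labelled Ezh2-cKO) and Lrp2 (2.05 FPKM) had Cd73P differences of 0.071 and -0.074, and Mc4r was listed at 0.

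The remaining members were low in Cd73P. Cebpb fell from 1.17 to 0.43 FPKM, a difference of -0.60 (SE 0.14), and with a pseudocount of 5 it was -0.19. Cebpd was at 0.92 and 1.8 FPKM (0.55, SE 0.10) and Gfap at 0.76 and 1.36 FPKM (0.42, SE 0.095), both within 1.5-fold. Serpina3n (0.058 and 0.022 FPKM) and Lif (0.0061 and 0.017 FPKM) were close to 0 in both genotypes.

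**Figure D2:**
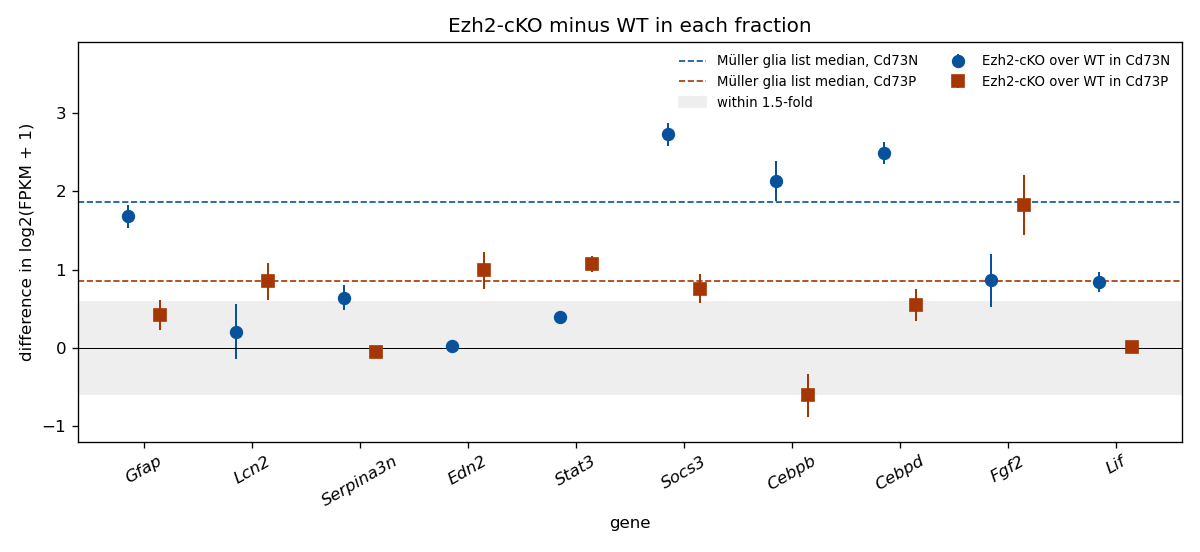
Difference in log2(FPKM + 1) between the library labelled Ezh2-cKO and wildtype for each gene, with circles for Cd73N, squares for Cd73P, bars of 2 counting SE, dashed lines at the Müller glia list medians (1.86 in Cd73N and 0.85 in Cd73P) and grey for differences within 1.5-fold. Socs3, Cebpd and Cebpb lie above the Cd73N line, and Fgf2, Stat3 and Edn2 lie above the Cd73P line.

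Set side by side, the calls of the fractions placed the members in groups. Of all genes 7.18% were higher in Cd73N and 2.26% in Cd73P, and the share called in both was not counted. The paper reports that only some genes rose in both fractions, so calls in a single fraction are not particular to the members. Socs3 and Fgf2 were past the threshold in both fractions. Gfap, Serpina3n, Cebpd and Lif were higher in Cd73N and within 1.5-fold in Cd73P. For Gfap and Cebpd this grouping depended on the added 1. Their Cd73P ratios of FPKM were 1.78 and 1.96, and with a pseudocount of 0.1 their differences of 0.76 and 0.90 passed the threshold. Lcn2, Edn2 and Stat3 were within 1.5-fold in Cd73N and higher in Cd73P. Cebpb was higher in Cd73N and lower in Cd73P. The Cd73P difference minus the Cd73N difference was -2.74 (SE 0.19) for Cebpb, -1.97 (SE 0.12) for Socs3, -1.94 (SE 0.13) for Cebpd and -1.26 (SE 0.12) for Gfap. It was 0.97 (SE 0.12) for Edn2, 0.96 (SE 0.25) for Fgf2, 0.68 (SE 0.064) for Stat3 and 0.64 (SE 0.21) for Lcn2. These contrasts had no replicates and were not tested.

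The other genes of the members' pathways were then counted. Of all genes 7.18% were higher in Cd73N and 2.26% in Cd73P, and of those that reached 1 FPKM 11.6% and 4.32%. Of 9 ligands of the interleukin 6 family, 4 were higher in Cd73N and 0 in Cd73P. Clcf1 went from 0.070 to 1.73 FPKM in Cd73N (difference 1.35), Cntf from 4.16 to 11.0 FPKM (1.22), Ctf1 from 0.60 to 1.63 FPKM (0.71), and Lif was the other one. Il6, Osm and Il11 were below 0.4 FPKM in every library. Of 6 receptor genes of this family 2 were higher in Cd73N. These were the shared chain Il6st, from 6.84 to 13.8 FPKM (0.91), and Osmr, from 1.01 to 3.83 FPKM (1.27). All Cd73N differences of these ligands and receptors were below the Müller glia list median of 1.86, with the added 1 in both. The Lif receptor Lifr lay mainly in the rod fraction, at 22.4 and 21.0 FPKM in Cd73P and 1.67 and 2.21 FPKM in Cd73N, with genotype differences of -0.09 and 0.26.

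Of all genes 7.18% were higher and 1.71% lower in Cd73N, and 2.26% were higher in Cd73P. Of 11 Jak and Stat genes 0 were higher and 1 was lower in Cd73N, namely Stat5a at -0.61. In Cd73P 2 of them were higher, Stat3 and Jak1. Of 14 feedback genes only Socs3 was higher in Cd73N, while Socs3 and Cish were higher in Cd73P. In the C/EBP family of 7 genes, Cebpb and Cebpd were higher in Cd73N, and Cebpg (0.56), Cebpa (0.41), Ddit3 (-0.07) and Cebpz (-0.13) were within 1.5-fold. The list medians in Cd73N were 0.02 for Jak and Stat genes, 0.04 for feedback genes and 0.41 for the C/EBP family.

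Of 13 genes of the Fgf family, Fgf2 alone was higher in each fraction and 0 were lower. Of 15 genes of the receptors and of signalling feedback, 7 were higher in Cd73N and 1 in Cd73P, where 7.18% and 2.26% of all genes were higher. The receptor Fgfr1 rose from 3.04 to 12.2 FPKM in Cd73N, a difference of 1.71. The feedback inhibitor Spry1 rose from 4.80 to 14.8 FPKM (1.45), and Il17rd and Fgfrl1 both had differences of 1.22. These Cd73N differences were below the Müller glia list median of 1.86 on the same scale. In Cd73P the target gene Etv5 rose from 2.61 to 5.87 FPKM (0.93), whereas Fgfr1 was at 0.17 and 0.66 FPKM.

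Lists of reactive astrocyte genes were counted as well. Of all genes 7.18% were higher and 1.71% lower in Cd73N, and 2.26% were higher and 2.39% lower in Cd73P. Of those that reached 1 FPKM, 11.6% were higher in Cd73N and 4.32% in Cd73P. Of 13 genes shared by kinds of reactive astrocyte, 7 were higher in Cd73N and 4 in Cd73P (Cp, Lcn2, Vim and S1pr3), with medians of 0.64 and 0.20. This list is not independent of the members. Gfap and Serpina3n are among the 7 and Lcn2 is among the 4, and Vim is also a gene of the Müller glia list. The hyaluronan receptor Cd44 rose from 2.1 to 12.6 FPKM in Cd73N (2.14) and the copper-carrying ferroxidase Cp from 22.1 to 98.7 FPKM (2.11). Cp also rose in Cd73P, from 0.96 to 3.60 FPKM (1.23). Of 12 genes known from inflammatory activation 2 were higher in Cd73N, Psmb8 (0.74) and Srgn (0.67), and in Cd73P Fkbp5 was higher (0.59) while Amigo2 (-1.42) and Fbln5 (-0.82) were lower. Of 12 genes known from ischaemic injury 4 were higher in Cd73N, Sphk1 (2.69), Ptx3 (2.24), Clcf1 (1.35) and S100a10 (0.94), and Emp1 was lower (-0.88). In Cd73P, Sphk1 (0.91) and Cd14 (0.78) were higher and Tm4sf1 (-0.74) was lower.

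**Figure D3:**
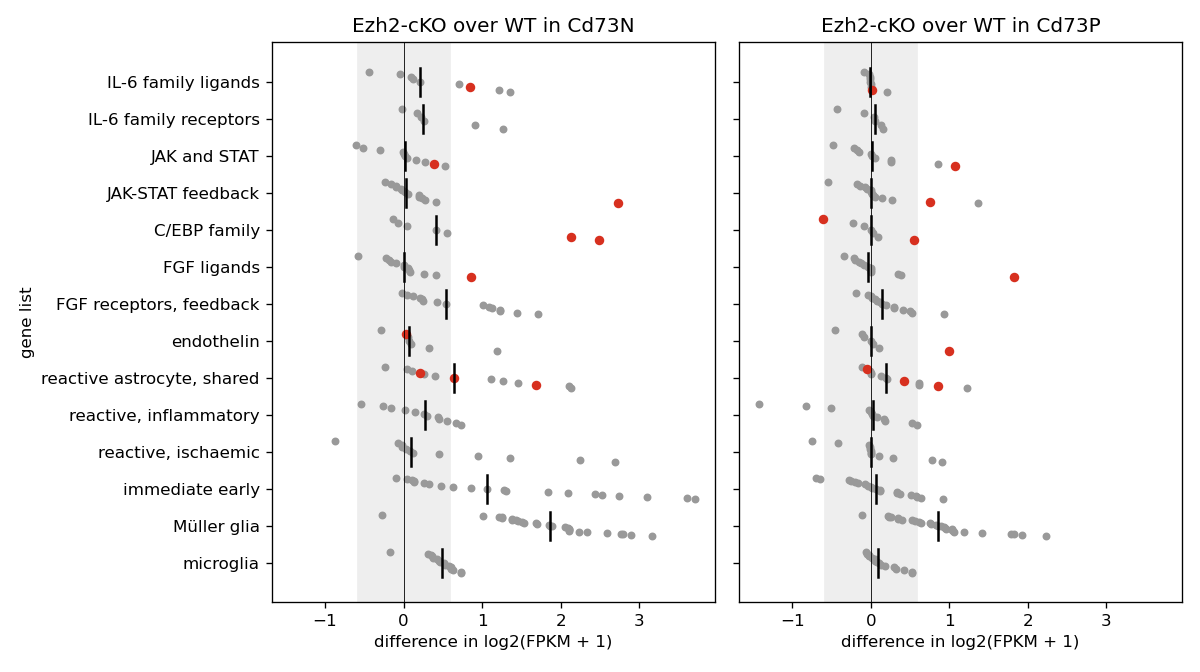
Difference in log2(FPKM + 1) between the library labelled Ezh2-cKO and wildtype for every gene of 14 lists in Cd73N (left) and Cd73P (right), with 1 point per gene, the 10 members in red, a black line at each list median and grey for differences within 1.5-fold. The Müller glia list, some of whose genes were already known to rise in Cd73N of these data, has the highest median of these lists in both fractions. The immediate early list has a median of 1.07 in Cd73N and 0.07 in Cd73P.

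A comparison of Cd73P with Cd73N within a genotype asked in which fraction the members lay. In wildtype 2 members were higher in Cd73P and 4 in Cd73N, against 9.07% and 27.9% of all 21704 genes and 15.4% and 45.9% of the 12488 that reached 1 FPKM. In those labelled Ezh2-cKO, 3 were higher in Cd73P and 6 in Cd73N, against 8.4% and 29.1% of 21703 genes and 13.8% and 45.6% of the 12974 that reached 1 FPKM. These comparisons share libraries with those between genotypes. Lcn2 and Fgf2 were higher in Cd73P in both genotypes, with differences of 1.19 (SE 0.16) and 0.93 (SE 0.19) in wildtype, and of 1.83 (SE 0.14) and 1.89 (SE 0.17) in those labelled Ezh2-cKO. Edn2 was at or near 0 in both wildtype fractions and higher in Cd73P of the libraries labelled Ezh2-cKO, by 1.05 (SE 0.11). Gfap, Socs3 and Cebpd were higher in Cd73N in both genotypes.

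The Cd73P level as a share of the Cd73N level was higher in the libraries labelled Ezh2-cKO for Stat3 and lower for Cebpb. Stat3 in Cd73P was 45.1% of its Cd73N level in wildtype and 76.4% in those labelled Ezh2-cKO. Cebpb in Cd73P was 81.1% of its Cd73N level in wildtype and 4.39% in those labelled Ezh2-cKO. The same share was 26.7% and 12.0% for Gfap, 21.3% and 6.25% for Cebpd and 9.0% and 4.15% for Socs3. Over the 29 Müller glia genes the median share was 5.78% in wildtype, with a range of 2.65% to 87.1%, and 3.85% in the other genotype, with a range of 2.17% to 48.4%. In both genotypes, Gfap, Cebpd and Socs3 thus kept more of their Cd73N level in Cd73P than the median Müller glia gene. Their shares lay within the range of that list, and Socs3 was at only 0.34 FPKM in Cd73P wildtype. The part of cells carried over between fractions was not tested.

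**Figure D4:**
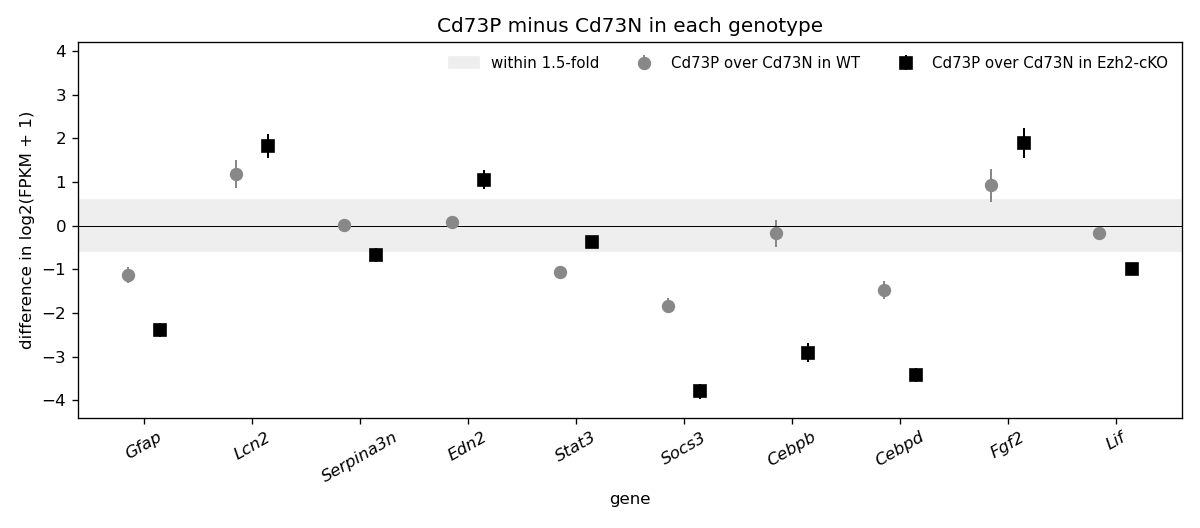
Difference in log2(FPKM + 1) between Cd73P and Cd73N for each gene, with circles for wildtype, squares for the libraries labelled Ezh2-cKO, bars of 2 counting SE and grey for differences within 1.5-fold. Lcn2 and Fgf2 lie above the grey band in both genotypes, and Socs3 lies lowest in both, at -1.83 and -3.80.

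The 3 members with the widest range over the libraries were Socs3 (4.55 on the log2 scale), Cebpd (3.96) and Cebpb (2.91). For each, the genes with the most similar profile were sought as those with the smallest Euclidean distance between centred log2(FPKM + 1) values over the 4 libraries. For Socs3 these were Cmtm5 (distance 0.098), Col9a2 (0.16) and Kcnj10 (0.22), the last a potassium channel of Müller glia. For Cebpd they were Plekho2 (0.13), Emid1 (0.18) and Folh1 (0.21), and for Cebpb they were Crim1 (0.30), Ankrd43 (0.33) and Rhpn2 (0.42). With 4 libraries these distances describe the levels and nothing more.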

How the data were processed

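RNA-seq libraries of Cd73N and Cd73P cells from wildtype and Ezh2-cKO retina at postnatal day 12 were analysed, with 1 library per group and groups taken from the sample titles. The authors sequenced 36-base single-end reads and deposited Cufflinks FPKM values with lower and upper bounds for 23021 gene rows per library. The submitters' processing notes name TopHat2 2.0.8b, Cufflinks 2.1.1, bcl2fastq 1.8.4 and build mm9. FPKM was not scaled between libraries, and absolute depth is unknown. Depth inferred from the bounds was 1 to 1.17 times that of Cd73N wildtype.

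Rows of 1 symbol were summed and 727 symbols of small RNAs were dropped. Status OK was required in both libraries of a pair. Differences of log2(FPKM + 1) were called at 1.5-fold, the threshold of the study, with no p-value. The SE came from the bounds, with a width of 4 SE, or from the upper side where the lower bound was 0. In 2673 to 3600 rows per library FPKM exceeded its own upper bound, so these SEs are approximate. Implied fragments are the squared ratio of FPKM to its SE. Named genes were the members, up to 4 genes per list with the largest Cd73N difference at FPKM of at least 1, and the nearest profiles. Other pathway genes, markers near 0 and all Cd73P examples were named after their values were seen. Members and lists were chosen with earlier results of these data known. The counting was tested on simulated data with 2-fold changes planted only in well-expressed genes, so calls at low levels were not covered. Python 3.11.15, pandas 2.3.3 and matplotlib 3.10.9 were used.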

Additional observations from a re-analysis of the deposited data

Results flagged for a closer look

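Cebpb moved in opposite directions in the fractions, with a difference between the library labelled Ezh2-cKO and wildtype of 2.14 in Cd73N and -0.60 in Cd73P. The Cd73P difference minus the Cd73N difference was -2.74. With single libraries, this contrast could not be tested.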

How the results depend on the processing

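No paired analysis was possible because each group had 1 library, and for the same reason no library could be left out. Scaling by the median ratio or the FPKM sum changed no count of members called. The factors, in log2 units, were 0.34 and 0.37 between fractions in wildtype and 0.27 and 0.23 in those labelled Ezh2-cKO, and the sum factor between genotypes in Cd73N was 0.12. With the added 1, low genes moved by less than the factor. Causes of the changes below were not tested beyond what the settings themselves do.

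Of the members, 4 instead of 7 were higher in Cd73N with a pseudocount of 5, with a 2-fold threshold and without a pseudocount, where 6 could be compared. In Cd73P the number higher went from 5 to 7 with a pseudocount of 0.1, where Gfap (0.76) and Cebpd (0.90) passed the threshold. At that setting the number lower stayed at 1. The number higher went to 3 with a pseudocount of 5, to 2 with the 2-fold threshold and to 3 of 3 without a pseudocount. In each of these later settings the number lower went from 1 to 0. Without a pseudocount this was because Cebpb, the member called lower, was not compared. That setting requires at least 1 FPKM in both libraries, and Cebpb was at 0.43 FPKM in Cd73P Ezh2-cKO. With a pseudocount of 0.1 the Cebpb difference was -1.27. Between fractions in wildtype, 3 and 5 members instead of 2 and 4 were higher in Cd73P and Cd73N with a pseudocount of 0.1, and 1 instead of 2 was higher in Cd73P with a pseudocount of 5, with the 2-fold threshold and without a pseudocount, where 1 instead of 4 was higher in Cd73N. For the Ezh2-cKO label, 3 instead of 6 were higher in Cd73N without a pseudocount. With a pseudocount of 5 and with the 2-fold threshold, 4 were. Without a pseudocount, only 3 members in wildtype and 6 in the libraries labelled Ezh2-cKO could be compared between fractions. After the Müller glia median was subtracted, the Cd73N differences turned to -0.18 for Gfap, -1.22 for Serpina3n, -1.0 for Fgf2 and -1.02 for Lif. The Cd73P differences turned to -0.0024 for Lcn2 and -0.096 for Socs3. This median was computed with the added 1 only, which shrinks the differences of low genes most, so these signs can depend on it. With a pseudocount of 0.1 the Cd73N differences before subtraction were 1.95 for Gfap, 2.33 for Serpina3n, 2.17 for Fgf2 and 2.33 for Lif.

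Over all genes, in the order Cd73N higher and lower, Cd73P higher and lower, the numbers were 1559, 371, 491 and 518. They were 3255, 766, 1430 and 1713 with a pseudocount of 0.1, 620, 177, 182 and 132 with 5, and 644, 71, 162 and 144 with the 2-fold threshold, and sum scaling gave 222 lower in Cd73N. Between fractions, 1969 genes were higher in Cd73P and 6055 in Cd73N for wildtype, and 1823 and 6317 in those labelled Ezh2-cKO. In wildtype these were 1230 and 3976 with a pseudocount of 5 and 1074 and 3832 with the 2-fold threshold, the first was 3034 after median and 3132 after sum scaling, and the second was 4031 without a pseudocount. In the libraries labelled Ezh2-cKO, 1047 and 4155 passed the 2-fold threshold, and the second was 4071 with a pseudocount of 5 and 3611 without one.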
